A study of Mus musculus with 6 samples.

Results

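miR-708 is a microRNA (miRNA), a short RNA that represses target mRNAs, and its hairpin precursor lies in an intron of Tenm4, the gene of the transmembrane protein teneurin-4. The precursor gives a mature miRNA from each of its arms, miR-708-5p and miR-708-3p. These 2 mature names (mmu-miR-708-5p and mmu-miR-708-3p), of 1915 in the deposited table, were taken by exact match, and each had 1 row. They were selected on their read counts in the air and CAP groups, so those levels and the ratio of the arms are given as a description with no test. The libraries came from endothelial progenitor cells (EPCs), which were cultured from the bone marrow of adult male C57BL/6J mice under conditions that favour an endothelial fate. Mice of the CAP group had inhaled concentrated ambient fine particulate matter daily over several weeks, and mice of the air group had inhaled filtered air in the same way. No mouse carried an engineered allele. There were 3 libraries in each group. Per the study's methods the mice of a group shared 1 cage, and cage and exposure therefore cannot be told apart.

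A precursor is processed into a short duplex of both arms, of which usually 1 strand is loaded into an Argonaute protein and acts on targets while the other is mostly degraded. Targets are recognised largely through the seed, bases 2 to 8 of the mature miRNA. In mouse cells, miR-708 and its host gene are induced together by the stress transcription factor CHOP during endoplasmic reticulum stress, and rhodopsin mRNA is a known target. In human breast cancer, miR-708 is known as a suppressor of metastasis that represses neuronatin. An intronic miRNA of this kind can be made from the transcript of its host gene. The level of Tenm4 mRNA was not examined here.

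The mature sequences of both arms are shown with those of miR-28a, an miRNA from an intron of Lpp, because the 5p arms carry the same seed. Sequences are from RefSeq on GRCm38.p6, written 5′ to 3′, with the seed in capitals.
miR-708-5p: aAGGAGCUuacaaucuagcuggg
miR-28a-5p: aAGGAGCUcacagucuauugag
miR-708-3p: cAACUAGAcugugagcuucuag
miR-28a-3p: cACUAGAUugugagcugcugga
Among the mature mouse miRNAs of the RefSeq table used here, in which miR-28c and the miR-151 arms were not matched, miR-28a-5p shared the seed of miR-708-5p. No further name there had that seed or the seed of miR-708-3p. Aligned without gaps, miR-708-5p and miR-28a-5p were identical at 16 of 22 positions, including the first 8. The differences, counted from the 5′ end of miR-708-5p and with its base first, were U9C, A13G, G18U, C19U, U20G and G21A. The 3p arms aligned best with miR-28a-3p shifted by 1 base, and then matched at 17 of 21 positions, so that their seeds were not the same window. Computed with RNAduplex, the miR-708 arms paired with each other at 18 positions with an energy of −23.7 kcal/mol.

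The Mir708 precursor spans 109 bases on the plus strand of chromosome 7 (GRCm38, 96249424 to 96249532). Its 5p arm lies at 96249450 to 96249472 and its 3p arm at 96249496 to 96249517, with 23 bases between them. Tenm4 runs on the same strand from 96171246 to 96911093 in GENCODE. In each of the 3 basic Tenm4 transcripts that contain it, the precursor lay in intron 1, whose length was 143365 to 183862 bases, and the 5p arm began 37779 to 78204 bases after the transcript start. The same intron holds 1 other annotated precursor, Mir6394 (96305667 to 96305765). Its product miR-6394 had 0 counts in all 6 libraries, which allows a level of up to 0.166 to 0.222 CPM (read counts brought to equal library size by the TMM method), for counting error only.

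miR-708-5p, the more abundant arm, was lower in every CAP library than in any air library. Air replicates 1, 2 and 3 held 1145, 929 and 1690 counts, or 66.1, 57.3 and 112 CPM. In CAP replicates 1, 2 and 3 there were 625, 431 and 536 counts, or 40.0, 23.9 and 39.7 CPM. Air replicate 3 stood apart as the highest library and CAP replicate 2 as the lowest. The group means were 78.4 ± 29.2 CPM in air and 34.5 ± 9.21 CPM in CAP (SD, n = 3), a level 2.27-fold higher in air. In the fit over 677 miRNAs (edgeR) its log2 fold change, CAP against air, was −1.18 (standard error, SE, 0.30). Without air replicate 3 this value was −0.85, and without CAP replicate 2 it was −0.99.

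miR-708-3p, the scarcer arm, was ordered in the same way between the groups. It stood at 99, 110 and 201 counts in air replicates 1, 2 and 3, or 5.72, 6.79 and 13.3 CPM. The CAP replicates 1, 2 and 3 held 62, 57 and 71 counts, or 3.97, 3.16 and 5.25 CPM. Again air replicate 3 was highest, CAP replicate 2 lowest, and the groups did not overlap, although air replicate 1 and CAP replicate 3 lay close to each other. Mean levels were 8.60 ± 4.10 CPM in air and 4.13 ± 1.06 CPM in CAP (SD, n = 3), 2.08-fold higher in air. The log2 fold change was −1.06 (SE 0.36), and −0.61 without air replicate 3. Counting error alone was 7.05 to 13.2% of a library's count for this arm, against 2.43 to 4.82% for miR-708-5p.

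**Figure D1:**
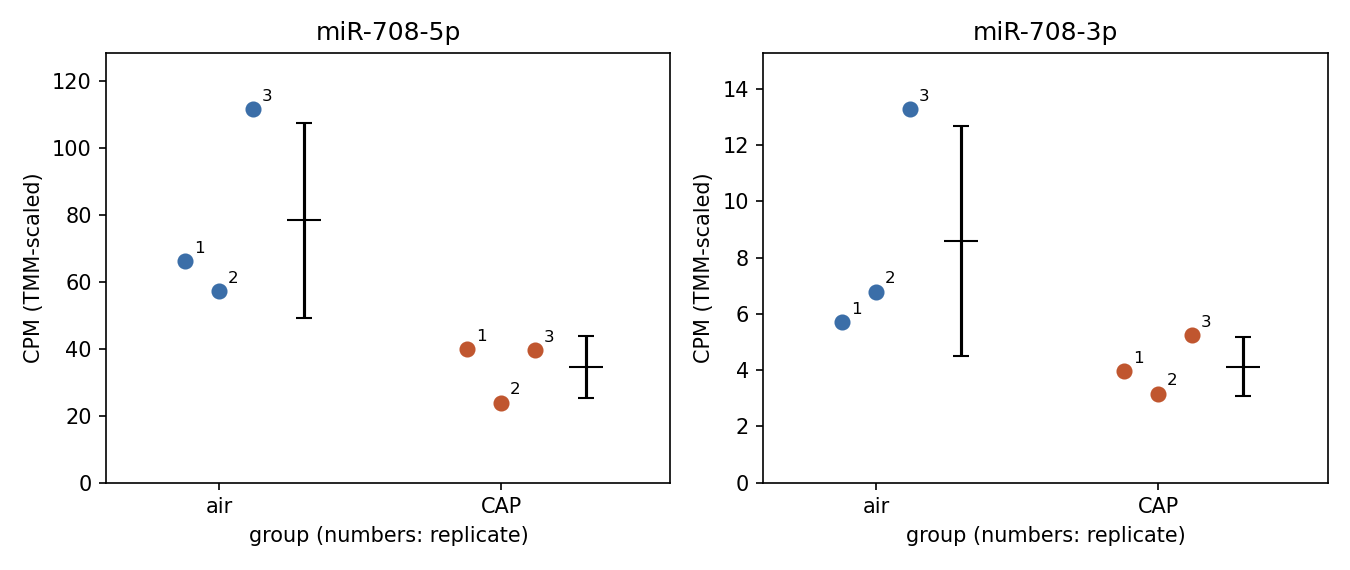
Level of each miR-708 arm by group, in CPM on a linear axis that starts at 0, with 1 numbered point per library and a bar for the group mean ± SD (n = 3). miR-708-5p lay between 57.3 and 112 CPM in air and between 23.9 and 40.0 CPM in CAP, and air replicate 3 was the highest library for both arms.

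Both arms were thus without overlap between the groups and lower in CAP, as were 97 of 677 miRNAs tested, or 14.3%. This contrast was used to choose the arms, and nothing is read from that count. A log2 fold change of at most −1 was found for 13 miRNAs (1.92%), among which miR-708-5p had the 8th and miR-708-3p the 10th lowest value of all tested. There were 262 precursors with both arms tested. In 83 of them both arms were lower in CAP, in 57 both were higher and in 122 the arms pointed in opposite directions. In this fit mir-708 was the single precursor with both arms at a log2 fold change of at most −1. The 3p arm fell short of that threshold at −0.99 with limma-voom and −0.90 with upper-quartile scaling. The arms were chosen on this contrast, so nothing is read from their ranks or from this standing either. For mir-708, the fold change of the 5p arm minus that of the 3p arm was −0.12 on the log2 scale. The median size of this difference over the 262 precursors was 0.32. In bulk cultures of this kind, fewer cells that express an miRNA and less of it per cell cannot be told apart.

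**Figure D2:**
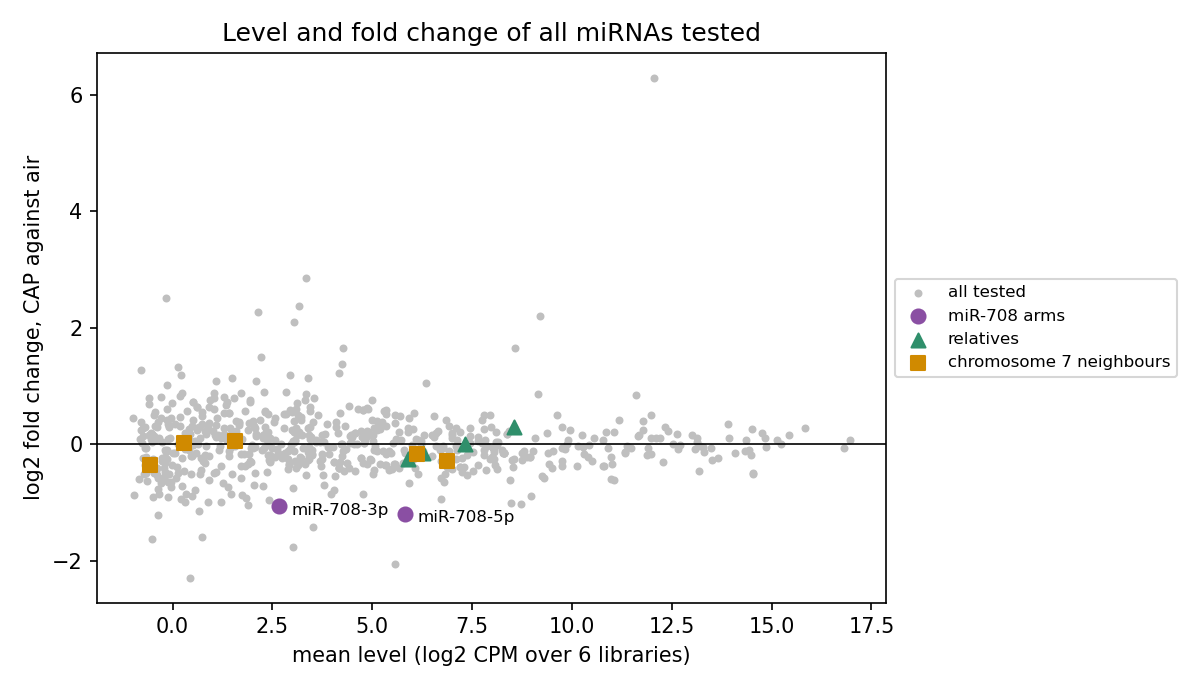
Mean level (log2 CPM over 6 libraries) against log2 fold change, CAP against air, for 677 miRNAs tested, shown as 1 point each, with the miR-708 arms, the relatives and the chromosome 7 neighbours marked. The miR-708 arms sit at −1.18 and −1.06, while the 4 relatives lie between −0.25 and 0.30.

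The libraries of a group differed among themselves more for miR-708 than for most miRNAs of similar abundance. In air the SD of log2 CPM was 0.51 for miR-708-5p, against a median of 0.12 for 147 miRNAs with a mean level within a factor of 3, and 5 of those had a larger SD. In CAP it was 0.42 against a median of 0.22, with 16 of 147 larger. For miR-708-3p the SD was 0.63 in air, with 8 of 219 miRNAs of similar level larger, and 0.36 in CAP, with 76 of 219 larger. For both arms air replicate 3 lay farthest from the other air libraries.

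The 5p arm made up most of the reads of the precursor in every library. Its share of the reads of both arms was 92.0, 89.4 and 89.4% in air replicates 1, 2 and 3, with Wilson 95% intervals of 90.4 to 93.4%, 87.4 to 91.1% and 87.9 to 90.7%. In CAP replicates 1, 2 and 3 it was 91.0, 88.3 and 88.3%, with intervals of 88.6 to 92.9%, 85.2 to 90.9% and 85.5 to 90.6%. These shares varied little and overlapped between the groups, while the level of the precursor's products varied widely. There were 8.41 to 11.6 reads of 5p for each read of 3p in air and 7.55 to 10.1 in CAP. The mean log2 ratio was 3.23 ± 0.26 in air and 3.06 ± 0.24 in CAP (SD, n = 3), a difference of −0.17 that was −0.02 without air replicate 1. Over all libraries the 5p arm held 89.9% of reads. Of 397 precursors with 1 row for each arm and at least 100 counts, 33.8% had a more even split than this, and the dominant arm held a median of 96.0%.

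The related precursors differed from mir-708 in their 5p share, though mir-151 also gave mostly 5p reads. mir-28a, with the same 5p seed, gave mostly 3p reads. Its 5p share was 20.0, 20.0 and 19.1% in air replicates 1, 2 and 3 and 17.4, 15.2 and 13.5% in CAP replicates 1, 2 and 3. The groups did not overlap for this share, and the mean log2 ratio of 5p to 3p differed by −0.44, CAP minus air. The exact two-sided permutation test gave p = 0.1 (adjusted p = 0.2 over 2 precursors), where 0.1 is the smallest p that 3 against 3 libraries can give. How many other precursors have an arm share without overlap was not counted. For levels of single miRNAs, 97 of 677 were lower and 99 higher in CAP without overlap. mir-151, from an intron of the focal adhesion kinase gene Ptk2, had a 5p share of 66.4 to 75.2% in air and 71.9 to 78.1% in CAP, and the exact permutation p was 0.4 (adjusted p = 0.4). Ligation and amplification favour some sequences over others in small RNA libraries, so shares of unlike sequences carry that bias.

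**Figure D3:**
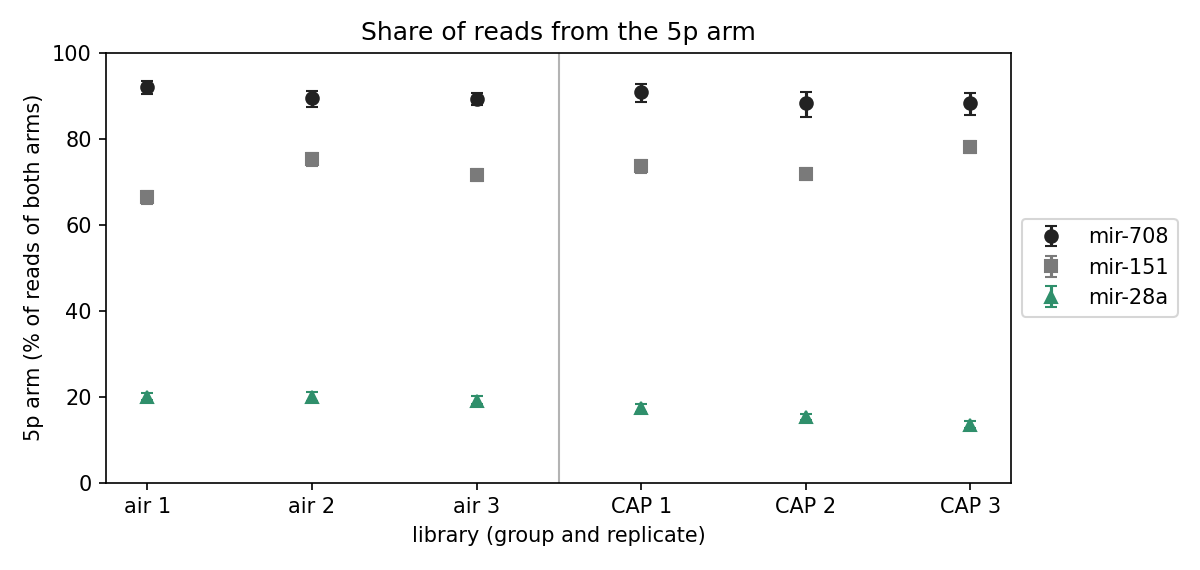
Share of reads from the 5p arm, as percent of the reads of both arms, in each library for 3 precursors, with Wilson 95% intervals that cover counting error only. The 5p share of mir-708 stayed between 88.3 and 92.0% in the 6 libraries, that of mir-28a between 13.5 and 20.0%.

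Because miR-708-5p and miR-28a-5p carry the same seed, their levels were also set side by side. miR-28a-5p stood at 83.6, 76.4 and 84.9 CPM in air replicates 1, 2 and 3 and at 68.6, 82.9 and 69.2 CPM in CAP replicates 1, 2 and 3, so the groups overlapped. Its log2 fold change was −0.15 (SE 0.12, edgeR adjusted p = 0.483). miR-708-5p supplied 44.2, 42.9 and 56.8% of the counts of both names in air replicates 1, 2 and 3. In CAP replicates 1, 2 and 3 its share was 36.8, 22.4 and 36.4%, below every air library. In air replicate 3 alone miR-708-5p was the more abundant of the pair. The summed level of the pair was 160 ± 32.7 CPM in air and 108 ± 1.17 CPM in CAP (SD, n = 3), and since the sum contains miR-708-5p it was not tested.

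**Figure D4:**
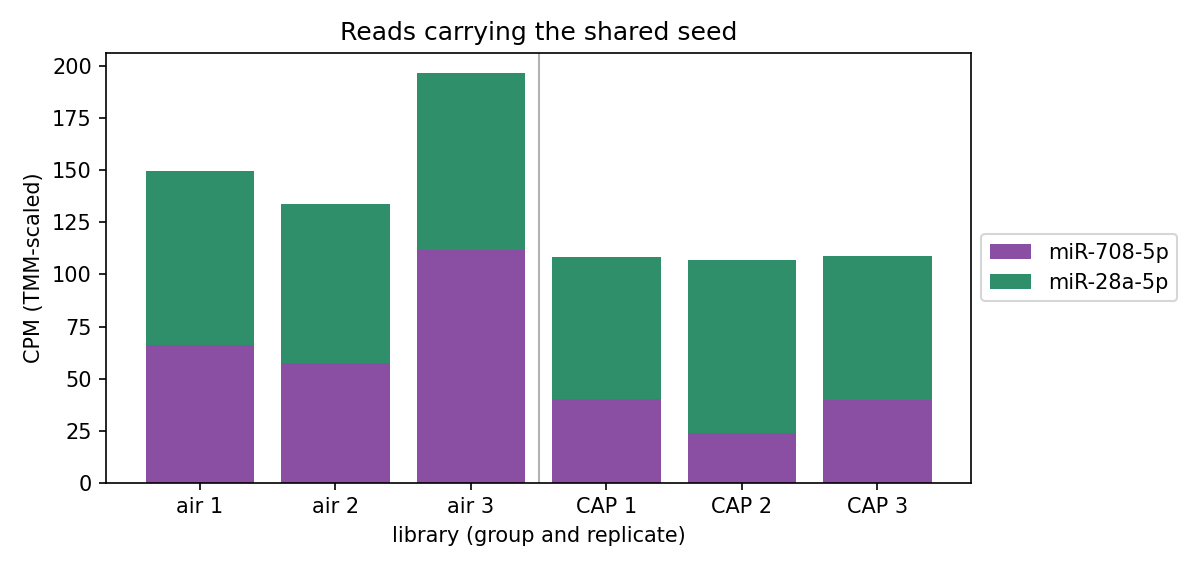
Stacked level of miR-708-5p and miR-28a-5p, the names that share a seed, in CPM for each library. The sum was 134 to 197 CPM in air and 107 to 109 CPM in CAP, and the miR-28a-5p part overlapped between the groups.

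The other relatives did not pass the test either. The 6 names from the mir-28a, mir-28b, mir-28c and mir-151 precursors were compared with edgeR's quasi-likelihood test, and 4 had enough counts to be tested. None of these 4 passed a Benjamini–Hochberg adjusted p of 0.05, none had an unadjusted p under 0.05, and none passed DESeq2 or limma-voom. Over all 677 miRNAs 0% passed the adjusted threshold with edgeR, 9.45% were lower and 11.5% higher in CAP at an unadjusted p under 0.05, and DESeq2 passed 2.36% as lower and 2.22% as higher. With upper-quartile scaling the unadjusted split moved from 64 lower and 78 higher to 25 and 130. miR-28a-3p averaged 333 ± 27.0 CPM in air and 411 ± 74.0 CPM in CAP (SD, n = 3), its log2 fold change being 0.30 (SE 0.15, edgeR adjusted p = 0.301). Without CAP replicate 1, DESeq2 passed it with an adjusted p of 0.0276. miR-151-5p averaged 160 ± 11.3 CPM in air and 161 ± 22.4 CPM in CAP (SD, n = 3, edgeR adjusted p = 0.966), and the log2 fold change of miR-151-3p was −0.25 (SE 0.14). miR-28b and miR-28c were at the edge of detection, with 1 to 4 and 8 to 10 counts per library.

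Other miRNAs encoded near Tenm4 were examined for a shared behaviour of the region. Within 10 Mb of Mir708 on chromosome 7 there were 9 mature names from 4 precursors, and 5 were tested. None of them passed edgeR's adjusted p of 0.05 or had an unadjusted p under 0.05, and DESeq2 passed none of those to which it gave an adjusted p. miR-326-3p, from an intron of the beta-arrestin gene Arrb1, lies 3.30 Mb away and averaged 128 ± 7.83 CPM in air and 105 ± 16.6 CPM in CAP (SD, n = 3). Its log2 fold change was −0.29 (SE 0.14, edgeR adjusted p = 0.291), and its groups did not overlap, as for 14.3% of all miRNAs tested in that direction. For miR-139-5p, from an intron of the phosphodiesterase gene Pde2a, the log2 fold change was −0.16 (SE 0.14). The remaining tested neighbours, miR-139-3p, miR-3102-3p and miR-3102-3p.2-3p, were scarce and had log2 fold changes of 0.05, −0.35 and 0.02.

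The miRNAs with the profile most like that of miR-708-5p were sought among 355 with a mean of at least 10 CPM. Likeness was the root mean square difference of centred log2 CPM over 6 libraries, where 0 is an identical shape and the median miRNA had 0.70. The nearest was miR-214-3p, from the noncoding gene Dnm3os, at 0.21, and miR-708-3p, itself under 10 CPM on average, was at 0.22. The p53-induced miR-34b-5p followed at 0.30, then miR-322-3p, of a cluster on the X chromosome, at 0.34, miR-195a-5p at 0.35 and miR-190a-5p, from an intron of the talin gene Tln2, at 0.36. miR-214-3p was at 527, 497 and 669 CPM in air replicates 1, 2 and 3 and at 271, 208 and 354 CPM in CAP replicates 1, 2 and 3, with the same highest and lowest libraries. This measure contains the difference between the groups, which also chose miR-708.

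With each group's mean subtracted, the measure rests on the spread within groups. The libraries are those on which miR-708 was selected, so this too is a description. The median miRNA then had a root mean square difference of 0.42, and a flat profile would have had 0.38. The nearest were miR-195a-5p at 0.18, miR-503-3p at 0.18, miR-148a-3p at 0.19, miR-190a-5p at 0.19 and miR-335-5p, from an intron of the imprinted gene Mest, at 0.20. miR-708-3p was at 0.20. Both arms and all 5 of these miRNAs were highest in air replicate 3 and lowest in CAP replicate 2 in CPM. That order held for 65 of the 677 miRNAs tested (9.60%). The 5 were picked by likeness to miR-708-5p, so for them the order is largely built in. In air replicates 1, 2 and 3, miR-190a-5p reached 313, 334 and 629 CPM. For miR-335-5p the same libraries gave 28.9, 25.9 and 59.1 CPM.

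**Figure D5:**
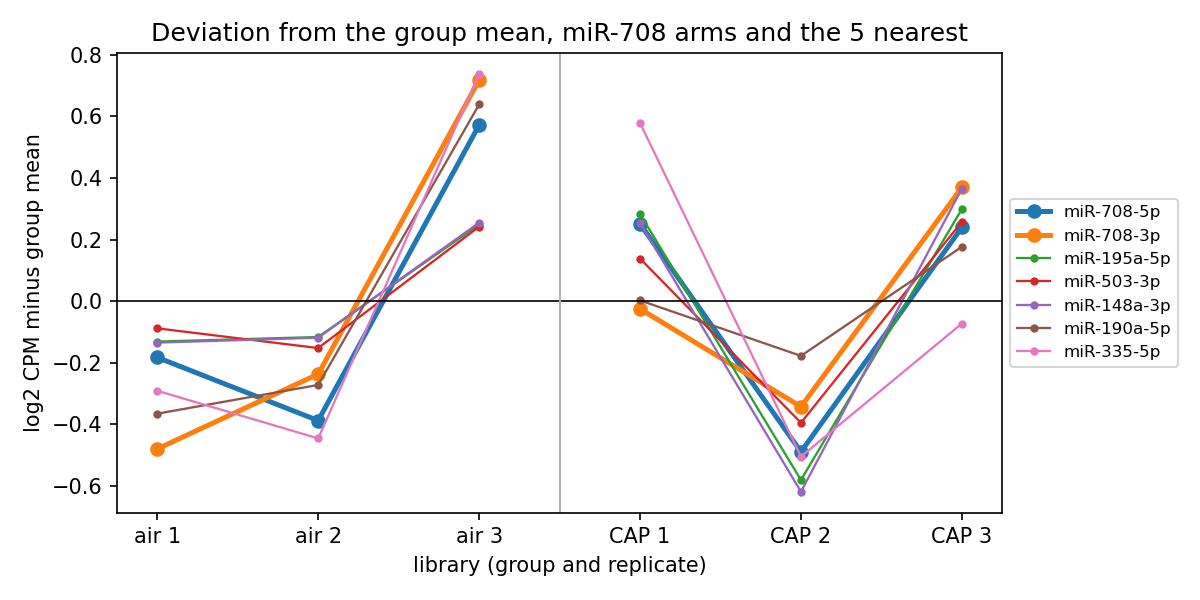
Deviation of log2 CPM from the group mean in each library for the miR-708 arms (thick lines) and the 5 nearest miRNAs (thin lines). Lines join the libraries of 1 group for reading only, and all miRNAs shown were above their group mean in air replicate 3 and below it in CAP replicate 2.

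Markers of the cell types that such cultures can hold moved with these libraries in part. Endothelial miR-126a-3p and miR-126a-5p, both lower in CAP on average, summed to 2743, 1953 and 5120 CPM in air replicates 1, 2 and 3 and to 3675, 947 and 1904 CPM in CAP replicates 1, 2 and 3. They were thus highest and lowest in the same libraries as miR-708, while CAP replicate 1 was above 2 of the air libraries. The 4 stromal and smooth muscle markers, all lower in CAP on average, summed to 47692 to 59320 CPM in air and 35667 to 51140 CPM in CAP, again highest in air replicate 3 and lowest in CAP replicate 2. Singly, miR-199a-3p and miR-214-3p had that order, while miR-143-3p and miR-145a-5p were lowest in CAP replicate 1. Of these, miR-214-3p was also the profile nearest to miR-708-5p over 6 libraries. In the wider stromal list below, 6 of 22 miRNAs were higher in CAP. The 4 haematopoietic markers, led by miR-223-3p and miR-142a-3p, summed to 57181 to 70801 CPM in air and 59922 to 75159 CPM in CAP. The 4 epithelial markers were all higher in CAP on average, with sums of 62.8 to 76.2 CPM in air and 67.2 to 122 CPM in CAP. Both erythroid markers were too, with sums of 11.0 to 21.9 CPM in air and of 10.2, 13.8 and 63.7 CPM in CAP replicates 2, 3 and 1. Of 3 muscle markers 2 were lower in CAP, and their sums overlapped at 124 to 495 CPM in air and 166 to 345 CPM in CAP. Among the neural markers, miR-9-5p was at 164 to 317 CPM, lowest in CAP replicate 2, and miR-124-3p was under 0.47 CPM in every library. The part of these cell types in the miR-708 levels was not tested. Liver-restricted miR-122-5p reached 24731 CPM in CAP replicate 1 against at most 277 CPM elsewhere. Without that library the log2 fold changes of miR-708-5p and miR-708-3p were −1.35 and −1.09.

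Among 22 miRNAs known from fibroblasts and smooth muscle, all tested and not counting miR-708, 16 were lower and 6 higher in CAP. Their median log2 fold change was −0.16, against 0.00 over all miRNAs, and a lower level of such a list had been seen in these data before it was drawn up. With upper-quartile scaling, which raised the median of all miRNAs to 0.15, the list was split into 11 lower and 11 higher with a median of −0.02. None passed edgeR's adjusted p of 0.05. At an unadjusted p under 0.05, 4 were lower and 0 higher, against 9.45% and 11.5% of all miRNAs tested. That split was 2 and 1 with upper-quartile scaling, 8 and 0 with no filter and 9 and 0 with the replicate number as a block. Over the 677 miRNAs, the same settings gave 25 and 130, 75 and 74, and 81 and 66. DESeq2 passed 2 as lower, miR-214-3p and miR-99a-5p, against 2.36% of all. The 4 lower at an unadjusted p under 0.05 in edgeR were miR-214-3p, miR-99a-5p, miR-145a-5p and miR-100-5p, with log2 fold changes of −1.02, −0.57, −0.37 and −0.37. Their SE were 0.21, 0.17, 0.11 and 0.14, and the edgeR adjusted p was 0.146 to 0.186. miR-199a-3p and miR-199b-3p have 1 mature sequence, so that these list members hold the same reads. Of the 22, 9 were highest in air replicate 3 and lowest in CAP replicate 2, as miR-708 was, against 9.60% of all miRNAs tested. These 9 include every miR-199a, miR-199b and miR-214 arm of the list and are not independent of each other. The order itself was taken from miR-708, so nothing is read from this count.

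Of 10 miRNAs linked to endoplasmic reticulum stress, 9 were tested, and 5 were lower and 4 higher in CAP with a median log2 fold change of −0.19 (−0.05 with upper-quartile scaling). The list holds miRNAs that such stress induces, as it does miR-708, and others that it represses. Its counts and median therefore have no set direction and are not read as a level of stress. None passed edgeR's adjusted p of 0.05, while 2 were lower and 1 higher at an unadjusted p under 0.05, against 9.45% and 11.5% of all miRNAs tested. With upper-quartile scaling 2 were lower and 3 higher, and with the replicate number as a block 3 were lower and 0 higher. Over the 677 miRNAs, these 2 settings gave 25 lower and 130 higher, and 81 lower and 66 higher. DESeq2 passed 1 as lower, miR-214-3p, against 2.36% of all. That is the same call as in the stromal list, which also shares miR-199a-5p and miR-455-5p with this list. miR-204-5p, from an intron of the channel gene Trpm3, was at 41.2, 50.2 and 138 CPM in air replicates 1, 2 and 3 and at 16.7, 4.76 and 34.6 CPM in CAP replicates 1, 2 and 3. Its highest and lowest libraries were those of miR-708, and its log2 fold change was −2.04 (SE 0.74, edgeR adjusted p = 0.181). miR-30c-2-3p, which represses the stress regulator XBP1, averaged 27.4 ± 2.02 CPM in air and 36.5 ± 6.23 CPM in CAP (SD, n = 3, edgeR adjusted p = 0.184). The log2 fold change of miR-25-3p, which the stress kinase PERK is known to repress, was 0.16 (SE 0.08, edgeR adjusted p = 0.299). From the same cluster, the list also holds miR-93-5p at 0.18 (SE 0.09) and miR-106b-5p at −0.19 (SE 0.11). miR-211-5p, induced through PERK, was too scarce to test, at under 0.60 CPM in every library.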

How the data were processed

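Small RNA of 6 EPC cultures, 3 per group by the sample titles, was sequenced by the authors. Per the study's methods, QIAseq libraries were run on a NextSeq 500, trimmed with Trimmomatic, mapped to mm10 (GRCm38) with mirDeep2 and bowtie and counted against miRBase. The deposited values are raw read counts per mature miRNA and precursor. Collapsing by molecular identifiers was not stated, so intervals cover counting error only. Culture lasted 12 days per the labels, and the methods give another time. Column totals were 19978586 to 25532775 counts, or 13831209 to 18107578 with the row of highest total kept for each name.

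Counts were tested with edgeR 4.0.16 (TMM, default expression filter, quasi-likelihood, Benjamini–Hochberg over 677 miRNAs), with DESeq2 1.42.0, the study's tool, and limma 3.58.1 as alternatives. Scripts were tested on simulated data. Standard errors came from the F statistic. Likeness used log2 CPM with a prior count of 2. Duplexes were computed with ViennaRNA 2.7.2, intervals and permutation tests with scipy 1.17.1. Sequences and positions came from RefSeq and GENCODE, whose sequence table matched both miR-708 arms.

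The members, lists and tests were chosen with earlier results of these data known. Named were both arms, their relatives, neighbours on chromosome 7, the 5 nearest profiles of each kind and cell type markers. From each list the 4 with the smallest p were named. miR-93-5p and miR-106b-5p were added after their values were seen. Replicates differed by more than sampling noise (chi-square per degree of freedom of 67.6 or more) and all were kept. Whether replicates came from separate mice is given by the methods only. Replicate numbers here follow the sample titles, while the deposited column names number the libraries otherwise and with gaps.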

Additional observations from a re-analysis of the deposited data

How the results depend on the processing

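The log2 fold changes of the miR-708 arms stayed below 0 in all settings run. For miR-708-5p they were −1.20 to −1.02 over other scalings, filters, row choices and tools, and −1.39 to −0.85 leaving out each library in turn (−1.38 to −0.83 with DESeq2, added after seeing the data). For miR-708-3p they were −1.07 to −0.90, −1.31 to −0.61 and −1.30 to −0.59. Both arms were chosen on this contrast and did not overlap between the groups. An unchanged sign on leaving out a library was thus set in advance, and nothing is read from it. Among the settings with all 6 libraries, upper-quartile scaling gave the values nearest 0, and it moved the median of all miRNAs to 0.15. The arm ratio difference was −0.18 to −0.13, and −0.31 to −0.02 leaving out each library.

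The number of all miRNAs with an adjusted p of at most 0.05 was 13 with no filter and 31 with DESeq2, against 0 in the other edgeR and limma-voom settings, and 6 to 81 with DESeq2 on 5 libraries. Omitting 1 air library (replicate 1, 2 or 3) there gave 11, 6 or 10, and omitting 1 CAP library gave 63, 23 or 81. The stromal list had 1 with no filter, 2 with DESeq2 and 0 to 9 with DESeq2 leaving out each library. The endoplasmic reticulum stress list had 1, 1 and 0 to 3. Relatives numbered 0 to 1 and chromosome 7 neighbours 0. With a mean of at least 100 CPM, 3 of the 5 nearest profiles within groups were shared, and all 5 in the other settings.

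Same-numbered libraries shared only a number. Correlations of their deviations from the group means were 0.02, −0.02 and 0.14. With the replicate number as a block, miR-708-5p and miR-708-3p had log2 fold changes of −1.16 and −0.99, the arm ratio difference was −0.17 and 0 miRNAs passed. miR-708-3p, at 57 to 201 counts per library, is limited by depth.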
